A study of Homo sapiens with 6 samples.

Results

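The pre-45S rRNA start windows are the 6 windows of 400 bp, of 53603 counted, whose label names the start of the ribosomal RNA precursor. They were chosen by that label alone. Small RNA was sequenced from HEK293T, an embryonic kidney cell line, in 3 libraries of a control knockdown (siControl) and 3 of a La knockdown (siLa). Both arms received 150 nM siRNA with a lipid reagent for 48 h, and they differed in whether the siRNA was the control or targeted La, the protein encoded by SSB. Both arms were also treated alike with Antarctic phosphatase and then T4 polynucleotide kinase. All libraries come from 1 cell line, and cell type markers are not measured by windows of small RNA. The labels do not say what made the biological replicates separate, so the spread between them may be partly technical.

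Ribosomal DNA lies in tandem repeats on the short arms of the acrocentric chromosomes and is transcribed by RNA polymerase I. The long precursor begins with the 5′ external transcribed spacer, a leader that is cut away, and it goes on to the 18S, 5.8S and 28S rRNAs of the ribosome. Transcription starts are set by the factors UBF and SL1 at a promoter just upstream. La is known for holding the uridine-rich tails of fresh RNA polymerase III products, among them 5S rRNA, which is not part of this precursor.

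Each window ran from 149 bases before the annotated start base to 250 bases after it, counting that base as 0. It thus holds the proximal promoter and the first part of the spacer, and no mature rRNA. Of the 6 windows, 5 matched the first base of a RefSeq 45S gene exactly (GRCh38.p14). On chromosome 21 they were pre-45S_rRNA_53034 at RNA45SN2 (positions 8205839 to 8206238), pre-45S_rRNA_53064 at RNA45SN3 (8388886 to 8389285) and pre-45S_rRNA_53080 at RNA45SN1 (8433073 to 8433472). The window pre-45S_rRNA_53126 at RNA45SN4 (122124 to 122523) lay on a scaffold of chromosome 22, and pre-45S_rRNA_53586 at RNA45SN5 (105275 to 105674) lay on an unplaced scaffold. The sixth, pre-45S_rRNA_53052 (chromosome 21, 8250048 to 8250447), matched no RefSeq 45S gene. An 18S pseudogene, RNA18SP5, begins 3645 bases downstream of its start base, a spacing close to the 3631 to 3658 bases between start and 18S in the other 5 repeats.

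Every window also contains a copy of RF01518 in the GENCODE release 29 annotation. RF01518 is the Rfam family of promoter-associated RNA (pRNA), a short transcript of the ribosomal promoter known for binding the silencing complex NoRC. The copies lay from 137 to 48 bases before the start base, on the strand of the precursor. The GENCODE sequence of the copy upstream of RNA45SN2, at chr21:8205851-8205940 on the plus strand of GRCh38, is shown because the windows share it. Capitals mark a run of TTTTT, the kind of tract at which RNA polymerase III can terminate. La holds such uridine runs as the tail of an RNA, whereas this run lies inside the copy, from base 12 of 90.
pRNA at RNA45SN2: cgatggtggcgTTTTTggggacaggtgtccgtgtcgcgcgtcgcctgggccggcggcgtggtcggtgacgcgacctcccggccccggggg
All 4 chromosome 21 copies had this same sequence of 90 bases, with a GC content of 75.6%. Reads lying wholly within this stretch therefore fit 4 windows equally well. The sequences of the 2 scaffold copies were not used here. Across 35116 RefSeq promoters, the same stretch held TTTTT on the transcribed strand in 8.24% and on either strand in 15.0%, and its median GC content was 58.9%. The match is a description of the sequence and does not place a site. Diverged RF01518 copies on chromosome 12 (38150050 to 38150138) and further along chromosome 21 (14075950 to 14076038) were 75.0% and 79.3% identical to it, and no counted window overlapped either. Not every chromosome was included in this comparison, so the annotation may hold further copies.

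The libraries held from 3066299 to 4105806 counts. The SSB window with the most reads, PCG_40419, had 4, 3 and 3 counts in the siControl libraries and 1, 0 and 0 in the siLa libraries. The other SSB window, PCG_12982, had 0, 0 and 1 counts in the siControl libraries and 0, 2 and 0 in the siLa libraries. These windows count promoter small RNA and do not measure SSB mRNA, so how far La was depleted is not known from these counts. The rRNA class took from 34.3% to 54.5% of a library, and the highest share was in siLa replicate 2.

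Few reads came from the start windows. The 6 windows together had 230, 159 and 196 reads in siControl replicates 1 to 3, and 125, 144 and 142 in siLa replicates 1 to 3. The arms did not overlap, beside 27.3% of all tested windows that were lower in siLa without overlap in raw reads. The mean was 195 ± 35.5 reads in siControl and 137 ± 10.4 in siLa (SD, n = 3). A window averaged from 25.8 to 30.5 reads per library, against a median of 175.8 over the 1064 windows that had enough reads to test. All 6 passed that filter on low counts.

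Single windows are described here, and differences between windows were not tested. The RNA45SN5 window (53586) had 36, 35 and 30 reads in the siControl libraries and 21, 19 and 18 in the siLa libraries, with no overlap. The window without a RefSeq 45S gene (53052) had 41, 30 and 27 reads against 13, 21 and 23, also with no overlap in raw reads, though its arms overlapped once scaled for depth. In raw reads 27.3% of all tested windows were lower in siLa without overlap. The share among the start windows is near that background and is not a result about the start windows. The siLa libraries held 3066299 to 3411114 counts against 3261883 to 4105806 in siControl. The RNA45SN2 window (53034) had 41, 22 and 41 against 18, 14 and 29, where siControl replicate 2 fell within the range of the siLa libraries.
In the remaining 3 windows the arms overlapped. The RNA45SN3 window (53064) had 36, 31 and 33 reads against 32, 31 and 20. The RNA45SN1 window (53080) had 38, 20 and 30 against 19, 24 and 30, and the RNA45SN4 window (53126) had 38, 21 and 35 against 22, 35 and 22. The chromosome 21 copies share the RF01518 stretch and the labels do not state how reads with several positions were placed, so a value for 1 copy is uncertain.

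**Figure D1:**
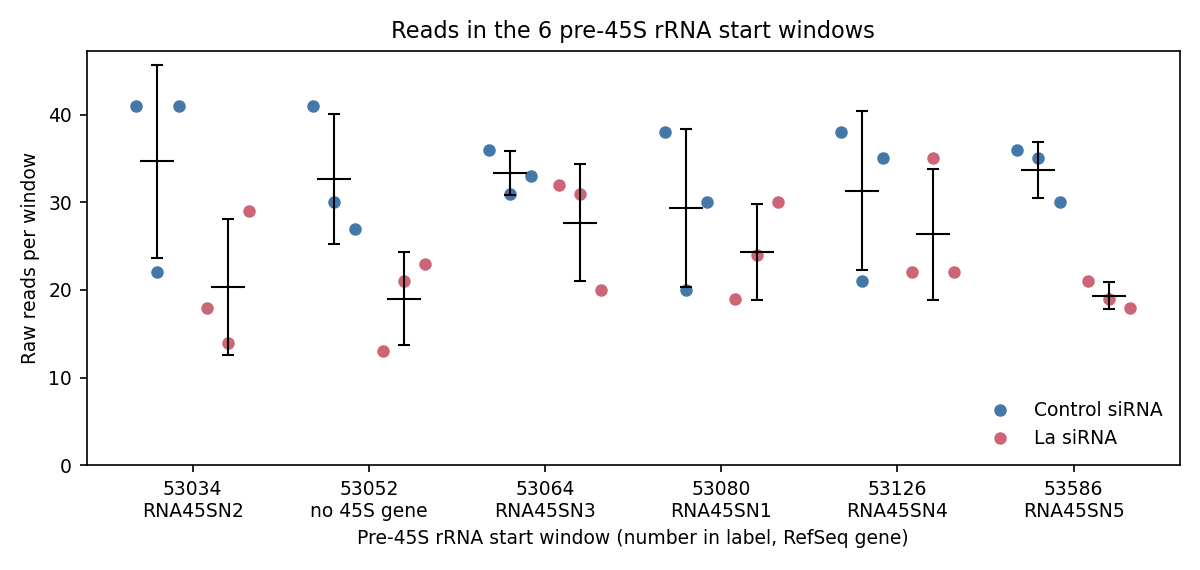
Raw reads (vertical axis) in each pre-45S rRNA start window (horizontal axis), with 1 point per library and the mean ± SD of each arm (n = 3). The La siRNA points lie below all control points for 53052 and 53586 and overlap them in the other 4 windows, beside 27.3% of all tested windows that were lower without overlap in raw reads. The arms of 53052 overlap after scaling for depth.

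Summed over the 6 libraries, the order from most to fewest reads was RNA45SN3 (183), RNA45SN4 (173), RNA45SN2 (165), RNA45SN1 (161), RNA45SN5 (159) and the window without a RefSeq 45S gene (155). Neighbours in this order did not differ beyond counting error. Even the 95% Poisson intervals of the first (157 to 212 reads) and the last (132 to 181 reads) overlapped. Within a library, the variance over the 6 windows divided by their mean is 1 on average when equal windows differ by counting noise alone. It was 0.132, 1.49 and 0.743 in the siControl libraries and 1.91, 2.53 and 0.992 in the siLa libraries. The arms overlapped in this measure.

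Against the rRNA class, the start windows were lower in the siLa libraries. The rRNA class is the 160 windows labelled rRNA, and from 86.2% to 90.0% of its reads lay in 68 windows of the chromosome 21 repeats. The start windows had 1.63, 1.22 and 1.28 reads per 10000 rRNA class reads in siControl replicates 1 to 3. In siLa replicates 1 to 3 they had 0.874, 0.774 and 1.11. The arms did not overlap, although siControl replicate 2 and siLa replicate 3 lay close together. Their 95% intervals for counting error, 1.04 to 1.43 and 0.933 to 1.30, overlapped. The ratio was 1.38 ± 0.224 in siControl and 0.918 ± 0.171 in siLa (SD, n = 3). The difference was -0.59 on the log2 scale (two-sided exact permutation p = 0.1, the smallest that 3 against 3 libraries allow). The 4 chromosome 21 windows alone gave -0.59 (exact permutation p = 0.2) and the 2 scaffold windows -0.61 (exact permutation p = 0.1). Over the 34 exact permutation comparisons computed on all 6 libraries, some of them overlapping, the Benjamini-Hochberg adjusted p-values ran from 0.19 to 0.7.

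Most other windows also had a lower ratio in the siLa libraries. Over the 1058 other tested windows the median difference of the log2 ratio to the rRNA class was -0.39, and 767 were below 0. Taken singly, 1 of the 6 start windows, that of RNA45SN5, had a ratio whose arms did not overlap with siLa lower, beside 23.4% of all tested windows. The share is near the background and is not a result about the start windows. The RNA45SN5 ratio was 0.240 ± 0.0390 in siControl and 0.130 ± 0.0241 in siLa, per 10000 rRNA class reads (SD, n = 3).

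The size of the difference depended on the reference. As a share of all counts the start windows had 56.0, 48.7 and 56.2 reads per 1000000 in the siControl libraries and 40.8, 42.2 and 44.97 in the siLa libraries, with no overlap. How many tested windows were lower without overlap on this scale was not computed. They were 27.3% in raw reads and 17.9% in counts scaled by TMM factors. The exact Clopper-Pearson 95% intervals ran from 41.5 to 64.7 over the siControl libraries and from 33.9 to 53.0 over the siLa libraries, and cover counting error only. The difference in the log2 share was -0.33 (two-sided exact permutation p = 0.1, the smallest possible). Against all windows outside the rRNA and pre-45S labels it shrank to -0.12 (exact permutation p = 0.5). The rRNA share itself was 39.4% ± 4.89 and 47.3% ± 6.98 (SD, n = 3, exact permutation p = 0.2), with the arms overlapping, and its part in the lower ratio was not tested. Against 5S rRNA, which RNA polymerase III makes, the difference was -0.52 (exact permutation p = 0.1, the smallest possible).

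**Figure D2:**
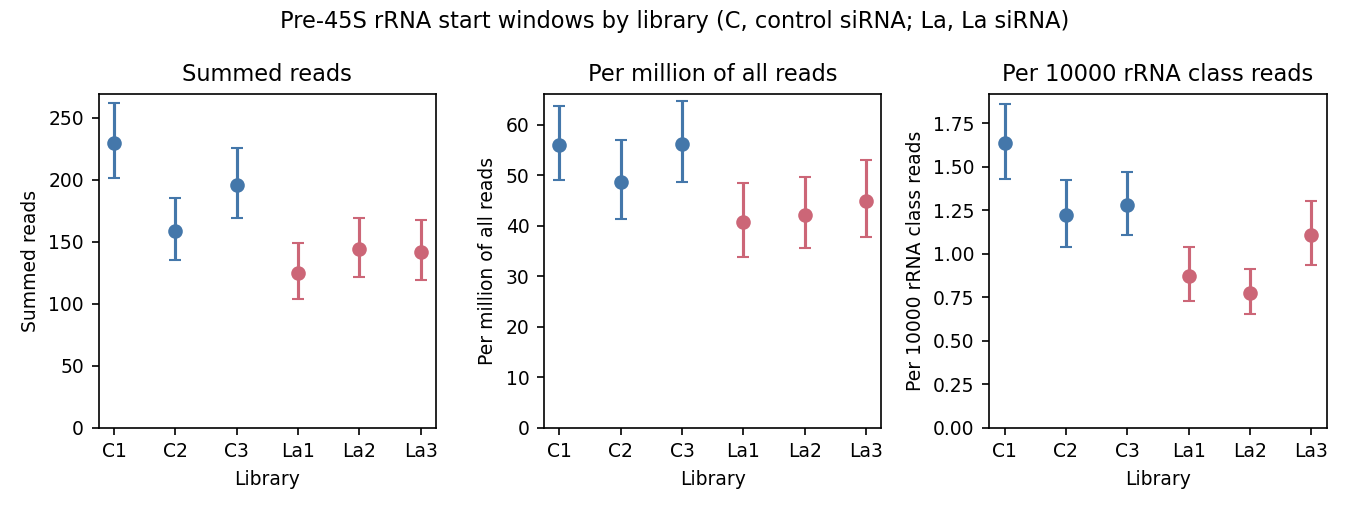
The 6 start windows summed in each library (horizontal axis), as raw reads, per 1000000 of all reads and per 10000 rRNA class reads (vertical axes), with 95% intervals for counting error. In each panel the 3 La siRNA libraries lie below the 3 control libraries, and intervals of single libraries overlap between the arms. Of all tested windows, 27.3% were also lower without overlap in raw reads and 23.4% in the ratio to the rRNA class.

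Far more reads came from just past the start windows. The next window of each chromosome 21 repeat runs from 277 to 676 bases after the start base, deeper in the 5′ external transcribed spacer. Over the 4 repeats it had 178, 209 and 184 times the reads of the start window in the siControl libraries and 292, 236 and 259 times in the siLa libraries. The arms did not overlap. How many other tested windows separate against these later windows was not computed. Against the rRNA class, 23.4% of all tested windows were lower in siLa without overlap. These later windows had 24456 ± 3164 raw reads in siControl and 23859 ± 2585 in siLa (SD, n = 3). In raw reads, not scaled for depth, the arms thus differed by less than the libraries of an arm did (exact permutation p = 0.7). With TMM scaling their log2 fold changes ran from 0.20 to 0.26 (lowest edgeR adjusted p = 0.422). Their median was -0.034 without a filter. The part of the later windows in the ratio was not tested. The start windows had 5.28 ± 0.433 reads per 1000 reads of the later windows in siControl and 3.84 ± 0.412 in siLa (SD, n = 3). That is a log2 difference of -0.46 (exact permutation p = 0.1, the smallest possible). This comparison was chosen after the data had been seen.

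The windows at the other end of the precursor were also thinly read. In 3 of the repeats a window covers the 3′ end, beginning 13103 to 13145 bases after the start base. Together these had 36, 48 and 57 reads in the siControl libraries and 72, 65 and 41 in the siLa libraries, and the arms overlapped. The start windows of the same repeats had 3.19, 1.52 and 1.82 times as many reads in the siControl libraries. In the siLa libraries the ratio was 0.958, 1.06 and 1.93, and the arms overlapped (exact permutation p = 0.3).

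**Figure D3:**
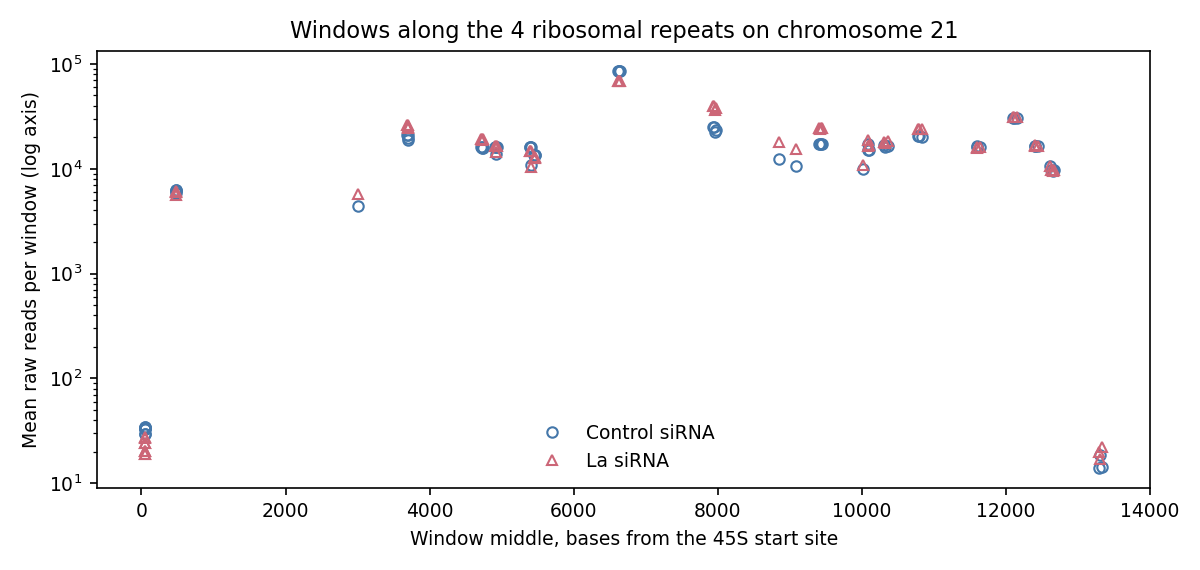
Mean raw reads per window (vertical log axis, n = 3 libraries per arm) against the distance of the window's middle from the 45S start site (horizontal axis), for rRNA and pre-45S windows of the 4 chromosome 21 repeats. The start and the 3′ end windows lie lowest, and the windows 277 to 676 bases after the start already average 5758 to 6152 reads over the libraries.

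In the edgeR quasi-likelihood test, 0 of the 6 start windows were called in either direction, beside 4.79% of 1064 tested windows called lower and 0.658% called higher. None had an unadjusted p under 0.05, and DESeq2 also called 0. Fitted log2 fold changes were below 0 in 6 of 6 windows with TMM scaling, beside 566 of all 1064 tested windows. They were below 0 in 3 of 6 with RLE factors, upper quartile factors or DESeq2. The windows may share reads, so their signs are not independent. The median with TMM scaling was -0.26 beside -0.05 over all windows tested. RNA45SN5 (53586) came to -0.55 on the log2 scale (95% interval -1.26 to 0.16, SE 0.32, edgeR adjusted p = 0.283). The window without a RefSeq 45S gene (53052) had -0.55 (SE 0.34, edgeR adjusted p = 0.304) and RNA45SN2 (53034) -0.50 (SE 0.39, edgeR adjusted p = 0.397). The RNA45SN2 value ran from -0.89 without siLa replicate 3 to -0.26 without siLa replicate 2, and was -0.18 with upper quartile factors. RNA45SN3 (53064), RNA45SN1 (53080) and RNA45SN4 (53126) had -0.016, -0.019 and -0.0049. These last 3 turned above 0 with RLE factors, upper quartile factors and DESeq2, where they ran from 0.055 to 0.32. Differences between windows were not tested.

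On the scale of counts scaled by TMM factors per 1000000 (CPM), RNA45SN5 went from 9.17 ± 1.30 to 6.27 ± 1.09 CPM (SD, n = 3), and it was the only one of the 6 whose arms did not overlap, beside 17.9% of all tested windows that were lower without overlap. RNA45SN3 had 9.04 ± 0.436 and 8.97 ± 2.59 CPM (SD, n = 3). In a fit that took the 6 windows as 1 summed row, chosen after the data had been seen, the level was 52.6 ± 6.74 CPM in siControl and 44.0 ± 1.29 in siLa (SD, n = 3). The log2 fold change was -0.26 (SE 0.24, 95% interval -0.79 to 0.27, edgeR adjusted p = 0.465). With upper quartile factors it was 0.05. The interval of the sum runs from 57.7% to 121% of the siControl level.

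**Figure D4:**
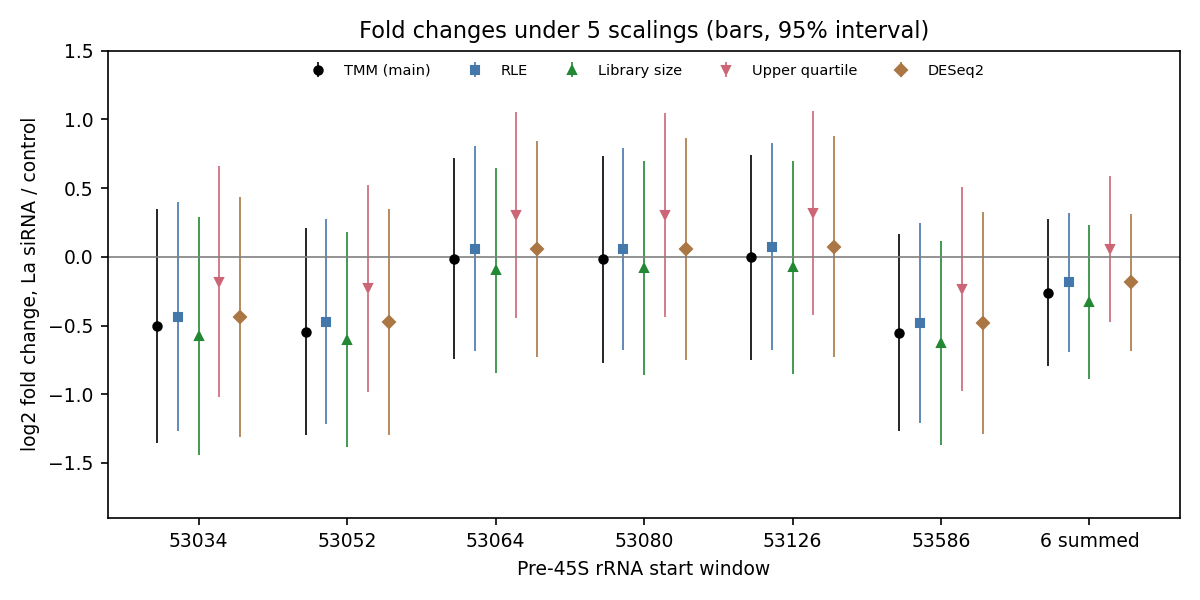
Log2 fold change of La siRNA over control (vertical axis) for each start window and for their sum (horizontal axis), under 5 scalings, with 95% intervals. Each interval spans 0, and 53064, 53080 and 53126 change sign with the scaling.

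In the authors' deposited table the 6 windows had log2 fold changes from -0.82 to -0.28. In the authors' deposited table unadjusted p-values ran from 0.0722 to 0.537, and each adjusted p was 1. Its scaling was not stated in the sources used here.

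The other windows of the ribosome pathway were mostly fitted above 0, and edgeR called none of them. Of 146 tested rRNA class windows, 0 were called, 40 had an unadjusted p under 0.05 and were higher, beside 9.68% of all tested windows. The median log2 fold change was 0.47 (0.38 to 0.78 over the 5 scalings), 0.23 without siLa replicate 2 and 0.21 without a filter on low counts. Copies of the repeat had near-equal counts and may share reads, so these 146 windows are not independent. Fitted values were above 0 in 137 of them and below 0 in 9, beside 498 above 0 and 566 below 0 over all tested windows. Of those 9, 4 are the start windows again under the rRNA label, placed 1 base earlier. Another 4 cover 5.8S rRNA genes or copies, the windows with the most reads of the class, each with a log2 fold change of -0.07 with TMM scaling. Their median was -0.0014 with RLE factors and 0.25 with upper quartile factors, so its sign depends on the scaling, and it was 0.089 without siLa replicate 2. RNA5-8SN1 (rRNA_53086) went from 23330 ± 1769 to 22187 ± 5390 CPM, RNA5-8SN3 (rRNA_53070) from 23305 ± 1730 to 22153 ± 5393 CPM and RNA5-8SN2 (rRNA_53041) from 23251 ± 1660 to 22175 ± 5399 CPM (SD, n = 3). The 4 windows just past the start had log2 fold changes from 0.20 to 0.26. Their median of 0.22 was 0.54 with upper quartile factors, 0.14 with library size alone and -0.034 without a filter. It was 0.11 without siLa replicate 1, 0.090 without siLa replicate 3 and 0.33 without siLa replicate 2.

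Of 46 tested 5S rRNA windows, 0 were called and 2 were higher at an unadjusted p under 0.05, beside 9.68% of all tested windows. The median was 0.28 (0.20 to 0.60 over the 5 scalings). That median was 0.12 without siLa replicate 1, 0.17 without siControl replicate 3 and 0.019 without a filter. The 3 with the most reads lie in the chromosome 1 cluster (5S_rRNA_51215, 5S_rRNA_51220 and 5S_rRNA_51224) and had log2 fold changes from 0.27 to 0.29. Their counts were near-equal and copies may share reads, so the 5S rRNA windows are not independent. Small RNAs that act on the precursor had windows for 8 of 16 listed symbols. Of their 9 tested windows, 0 were called, 1 was lower at an unadjusted p under 0.05 (14.2% of all tested windows), and the median was 0.42. It was 0.096 without siLa replicate 2, 0.15 without a filter and 0.73 with upper quartile factors. Of the 9 windows, 7 were fitted above 0 and 2 below 0. They include SNORD3A, SNORD3B-1, SNORD3B-2, SNORD3C and SNORD3D, which are copies of 1 snoRNA family, and 2 windows of RMRP. The median thus counts the same RNAs several times and does not describe 9 separate RNAs. RMRP, the RNA of RNase MRP, which cuts the internal spacer of the precursor, went from 990 ± 104 to 1417 ± 407 CPM (SD, n = 3). Its fitted change on the log2 scale was 0.52 (SE 0.26, edgeR adjusted p = 0.234), and a second RMRP window overlaps it. SNORD118, the U8 snoRNA needed for 5.8S and 28S maturation, went from 4643 ± 808 to 3957 ± 1137 CPM (SD, n = 3, log2 fold change -0.23, edgeR adjusted p = 0.561). The window lower at an unadjusted p under 0.05 was SNORD13, with 2431, 1025 and 516 reads in the siControl libraries and 429, 299 and 738 in the siLa libraries. The arms overlapped. The lowest log2 fold change of the list was -1.18, and -0.47 without siControl replicate 1. Promoters of RNA polymerase I subunits and nucleolar factors had too few reads, since 2 of 56 windows were tested and 0 were called. NPM1, the nucleolar protein nucleophosmin, had 18, 22 and 13 reads against 5, 14 and 9 (edgeR adjusted p = 0.302). NOP56, a core protein of box C/D snoRNPs, had 10, 11 and 3 against 7, 19 and 12 (edgeR adjusted p = 0.298).

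Over the 6 libraries, the windows whose log2 CPM most resembled that of the summed start windows were 3 tRNA windows, out of 890 compared. They were tRNA_52868 (chromosome 17, 8119602 to 8120001, Pearson r = 0.988), tRNA_52485 (chromosome 6, 28941423 to 28941822, r = 0.986) and tRNA_52335 (chromosome 6, 27519379 to 27519778, r = 0.983). These correlations share the same 6 libraries and scaling factors and are given as a description. The first had 711, 410 and 543 reads in the siControl libraries and 278, 329 and 348 in the siLa libraries, a fitted log2 change of -0.55 (edgeR adjusted p = 0.208). None of the 3 was called.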

How the data were processed

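The authors deposited raw read counts per 400 bp window for 6 libraries, per the file headers. Their deposited comparison table gives log2 fold changes and mean levels in log2 CPM. It also gives the F score of each window with its raw and adjusted p-value, as deposited. The submitters' processing notes name Trim Galore, Bowtie2, bedtools and edgeR and the build GRCh38 (hg38). Handling of reads with several positions and of strand was not given in the sources used here, so repeats may share reads and antisense RNA cannot be separated. Window starts were shifted by 1 to print browser positions.

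Counts were fitted with edgeR 4.0.16 in R 4.3.3 (filterByExpr, TMM factors, quasi-likelihood test over 1064 windows, Benjamini-Hochberg threshold 0.05) after a test on simulated data. Standard errors came from the fold change and the F statistic. Ratios were compared by exact permutation with scipy 1.17.1. RNA genes took windows overlapping by 20 bp, promoters those starting within 50 bp of a GENCODE release 29 transcript (older symbols only at the RefSeq gene's place). Symbols of RNA genes, 45S genes and promoter sequences came from RefSeq GRCh38.p14. The rule named all start windows, SSB, called windows of the 4 related lists or otherwise their 3 best read, and the 3 windows most alike with a mean of at least 20 counts. Members, lists and tests were chosen with earlier results of these data known. Alternatives were other scalings, DESeq2 1.42.0, other filters and denominators, collapsed rows, a replicate block and leaving out each library.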

Additional observations from a re-analysis of the deposited data

How the results depend on the processing

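The ratio of the start windows stayed lower in siLa in the alternatives tried. It ran from -0.73 against the 3′ end windows to -0.12 against all windows outside the rRNA and pre-45S labels, which are denominators other than the rRNA class. Adding the start windows to the rRNA class, or leaving out windows that overlap them, gave -0.59 and could hardly change it. Of 1058 other tested windows, 767 also had a lower ratio to the rRNA class. For that ratio, leaving out each library in turn gave from -0.73 to -0.46. The share of all counts gave from -0.40 to -0.29 over those fits. No permutation test of this size can pass 0.05, so their p-values do not speak to stability.

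The median log2 fold change of the 6 windows became 0.062 with upper quartile factors and -0.51 without a filter, and ran from -0.41 (without siLa replicate 3) to -0.18 over fits without 1 library. The summed row reversed to 0.054 with upper quartile factors, and ran from -0.35 to -0.15 without 1 library. Of 84 values for single windows, 65 kept their direction, 19 reversed and 0 were called. RNA45SN3 (53064) reversed to 0.060 under RLE, 0.30 under upper quartile and 0.059 under DESeq2 scaling, and ran from -0.25 to 0.11 without 1 library. RNA45SN1 (53080) reversed to 0.056, 0.30 and 0.055, and ran from -0.26 to 0.18. RNA45SN4 (53126) reversed to 0.075, 0.32 and 0.075 and ran from -0.20 to 0.13. RNA45SN5 (53586) ran from -0.72 to -0.47, the window without a RefSeq 45S gene (53052) from -0.77 to -0.38 and RNA45SN2 (53034) from -0.89 to -0.26. The cause was not tested. The median over all tested windows was -0.05 with TMM and 0.26 under upper quartile scaling.

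With the replicate number as a block, RNA45SN4 (53126) was at 0.00048, the summed row at -0.25, and the ratio to the rRNA class had a sign-flip p of 0.25, the smallest that 3 pairs allow. Whether the numbers mark pairs is not known. Same-numbered libraries had correlations of their deviations from the arm means of 0.14, 0.23 and -0.46. Libraries of unlike number had from -0.51 to 0.50. With 3 libraries per arm these correlations constrain each other, so they cannot decide it. All windows called, 58 in the main analysis, became 94 with upper quartile factors, 99 with DESeq2, 108 without a filter, 108 with the replicate block, and from 0 (without siLa replicate 1) to 119 (without siLa replicate 3) without 1 library. The edgeR fit without siLa replicate 1 still had 103 lower and 72 higher windows at an unadjusted p under 0.05. Calls came to 34 without siControl replicate 1, 31 without siControl replicate 2 and 36 without siLa replicate 2. The lower share of the calls was 36 of 94 with upper quartile factors and 51 of 58 with TMM factors. At about 30 reads per window, changes smaller than the intervals given were not detectable.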

Other observations

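The 4 chromosome 21 start windows have a twin under the rRNA label that is placed 1 base earlier. Of 24 pairs of values, 21 were equal, and in the other 3 the pre-45S window had 1 read more. A shift of the window by 1 base thus changed the count by at most 1 read in the 6 libraries. The reads of these 4 windows were counted under both labels. Leaving the twins out of the rRNA class left the log2 difference of the ratio at -0.59. That could hardly change, since the twins averaged 25.8 to 30.3 reads each beside at least 1282546 rRNA class reads in a library.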
